A study of Homo sapiens with 6 samples.

Results

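The hnRNP and SR splicing proteins were followed here through the messenger RNA of 40 named genes, 27 coding for hnRNPs and their relatives and 13 for SR and SR-like proteins. Members were taken as every probe set, the array's measuring unit for a transcript, whose only gene symbol in the platform annotation is one of the 40. They came to 148 of 54613 probe sets without controls. Of these, 132 passed a filter on low values, which kept 27307 probe sets in all: the probe sets whose average log2 value reached the median of all such averages. The 16 that were dropped had mean intensities between 2.45 and 28.1. The 132 kept probe sets belonged to 37 genes, 33 of them with several kept probe sets and 4 with 1, and SRSF1 had the most, 8. HNRNPH2, SRSF2 and SRSF9 have only probe sets with several symbols in the annotation table, and their intensities are not described.

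The series holds 6 arrays of total RNA from a human kidney cell line that the labels do not name, with 2 arrays in each of 3 groups. All 3 groups were transfected: the control group (mock) received the empty vector, the second a construct called hIMP1 wt and the third one called hIMP1 Dmut. The IGF2BP1 gene encodes IMP1, which binds messenger RNAs and governs the stability, transport and translation of its target messages. What is changed in Dmut is not said in the labels, and 1 treatment label spells it hIMP Dmut. The sample titles carry a number, 1 or 2, so that each number holds 1 array of each group. The labels do not say whether it marks a transfection, a culture or a batch, so p-values reflect only how far these arrays varied, and that variation may be technical.

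hnRNPs coat nascent pre-mRNA, package it and often block the use of splice sites, while SR proteins carry an arginine-serine domain that draws the splicing machinery to exons and so favours their inclusion. Many members of both families switch poison exons and retained introns in their own messages, so 1 gene often makes several transcripts. SYNCRIP and HNRNPU are known partners of IMP1 in a complex, together with YBX1 and DHX9, that protects the MYC message.

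The promoters of 37 of the 40 genes are in the RefSeq promoter table (GRCh38.p14), each from 250 bases before to 50 bases after the gene's start. This set lacks HNRNPA1, SRSF2 and TRA2A and includes HNRNPH2 and SRSF9, so it differs from the genes with kept probe sets. The member promoters were rich in G and C, with a median of 66.3% against 58.3% over all 27303 promoters of that table. They held a median of 30 CpG pairs against 14. Of 10 short motifs searched on both strands, the GC box (its letters GGGCGG) stood in 27 of the 37 member promoters (73%, against 44.6% of all) and the CCAAT box in 16 (43.2% against 35.7%). The E-box CACGTG stood in 8 (21.6% against 7.44%). The cAMP response half-site TGACGT and the ETS core CCGGAAG stood in 7 each (18.9%, against 8.33% and 10.7% of all). TATAAA stood in 5 (13.5% against 12%), a palindromic CGCG element in 2 (5.41% against 0.469%), and a form of the heat shock element in 1, that of HNRNPA2B1 (2.7% against 0.487%). The NRF1 core and the YY1 core were in none of the 37 windows, against 1.36% and 0.916% of all. A match describes the letters only. The promoters of 4 genes are printed because their probe sets differed most plainly between the arrays numbered 1 and 2: HNRNPA2B1 on the minus strand of chromosome 7 (chr7:26200697-26200996), SRSF6 on the plus strand of chromosome 20 (chr20:43457646-43457945), SRSF7 on the minus strand of chromosome 2 (chr2:38751445-38751744) and PTBP2 on the plus strand of chromosome 1 (chr1:96722388-96722687). They are written 5′ to 3′ along the gene, and capitals mark every match to a searched motif: the CCAAT box, the cAMP response half-site and the heat shock element in HNRNPA2B1, and the GC box in the other 3.
HNRNPA2B1 promoter: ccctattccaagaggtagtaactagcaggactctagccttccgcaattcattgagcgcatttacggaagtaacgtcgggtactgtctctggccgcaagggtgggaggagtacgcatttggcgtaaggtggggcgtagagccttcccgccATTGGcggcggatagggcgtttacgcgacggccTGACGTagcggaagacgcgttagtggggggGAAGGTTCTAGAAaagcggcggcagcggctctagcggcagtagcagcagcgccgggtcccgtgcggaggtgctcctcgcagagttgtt
SRSF6 promoter: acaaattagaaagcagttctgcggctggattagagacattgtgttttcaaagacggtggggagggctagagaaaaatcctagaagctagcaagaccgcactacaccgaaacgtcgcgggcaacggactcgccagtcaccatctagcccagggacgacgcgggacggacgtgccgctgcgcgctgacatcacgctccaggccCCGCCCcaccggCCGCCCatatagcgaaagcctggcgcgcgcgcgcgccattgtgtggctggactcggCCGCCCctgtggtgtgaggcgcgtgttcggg
SRSF7 promoter: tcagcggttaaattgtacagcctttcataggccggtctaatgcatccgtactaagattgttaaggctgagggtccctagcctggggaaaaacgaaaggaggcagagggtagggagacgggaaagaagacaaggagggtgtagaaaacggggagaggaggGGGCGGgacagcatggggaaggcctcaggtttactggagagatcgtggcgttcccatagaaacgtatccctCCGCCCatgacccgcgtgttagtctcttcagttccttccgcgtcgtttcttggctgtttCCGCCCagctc
PTBP2 promoter: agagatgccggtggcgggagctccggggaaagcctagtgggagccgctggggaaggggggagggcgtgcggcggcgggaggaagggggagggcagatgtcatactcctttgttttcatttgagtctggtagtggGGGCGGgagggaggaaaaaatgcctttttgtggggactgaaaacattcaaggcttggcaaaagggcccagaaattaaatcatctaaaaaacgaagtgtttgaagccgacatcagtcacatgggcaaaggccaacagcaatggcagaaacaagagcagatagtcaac

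Linear intensities were deposited. The trimmed means, with 2% taken off each end, were 150.02 on every array, and the medians lay between 26.7 and 33.7. Arrays of the same number correlated at 0.970 to 0.980 and arrays of the same group at 0.963 to 0.964. Of the embryonic kidney genes chosen as markers, 7 of the 10 on the array passed the filter. Among them were PAX8, WT1 and SALL1, while LHX1, OSR1 and PAX2 did not pass. For differentiated kidney epithelium 2 of 9 genes passed, for blood cells 2 of 6 and for fibroblasts 1 of 6. Of 6 neuronal markers 4 passed, with medians of 2093 for TUBB3, 1279.6 for NEFL, 64.3 for SNAP25 and 39.3 for MAP2. RBFOX3 and SYN1 did not pass. The summed intensity of that list lay between 3238 and 3935, most of it from TUBB3 and NEFL. IGF2BP1, the gene of the transfected protein, was read by a pair of kept probe sets. At 223689_at it had 188 and 93.2 on the control arrays, 253 and 137 with hIMP1 wt, and 248 and 150.5 with hIMP1 Dmut. The values with either construct lay above that of the empty vector within each number, but the groups overlapped. The change was 0.46 ± 0.39 (standard error) with hIMP1 wt and 0.51 ± 0.39 with hIMP1 Dmut, and neither passed the test. At 227377_at the values were 230.5 and 307, 226 and 326, and 266 and 287.5 in the same order of groups. There hIMP1 wt lay below the empty vector within number 1 and hIMP1 Dmut below it within number 2, with changes of 0.03 ± 0.25 and 0.05 ± 0.25. Whether either probe set matches sequence carried by the constructs is not given in the sources used here.

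The first question was whether the splicing genes changed when hIMP1 wt was introduced. None did by the test used. Changes are differences in log2(intensity + 9.05), so a change of 1 is a doubling for bright probe sets and less than the true change for dim ones. Errors are standard errors, and p-values come from limma with Benjamini-Hochberg adjustment over all kept probe sets, with a threshold of 0.05. With hIMP1 wt, 0 of 132 member probe sets passed, against 0.00732% of all 27307, which is 2 probe sets, both of the heat shock gene HSPA6. At an unadjusted p under 0.05 there was 1 member probe set (0.758%), against 1.03% of all. Each gene taken by its brightest kept probe set, 21 of 37 had a positive change and 16 a negative one, and 46.5% of all genes were positive. Their median was 0.02 against -0.01 over all 12269 genes, and the range ran from -0.13 to 0.31. All 37 of the 95% intervals included 0, the widest running from -0.73 to 1.15 at PTBP2. Median scaling of the arrays moved the count of positive changes to 29 of 37, and the median of all genes to 0.04.

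Among the hnRNPs, the 3 F and H genes had changes between -0.09 and -0.00, and the 7 A/B and D genes between -0.08 and 0.05. The widest spread was in the polypyrimidine tract and hnRNP L group, where 4 of 5 genes had positive changes. There HNRNPLL, an L-type protein known for switching CD45 exons in activated T cells, had the largest change of all at its brightest probe set. At 225386_s_at the controls had 686 and 619.6, while the wt arrays had 862 and 761. Both arrays with hIMP1 wt lay above both controls, with a change of 0.31 ± 0.24 (adjusted p = 1). At 225385_s_at, another probe set of the same gene, the empty vector had 371 and 209, hIMP1 wt had 180.5 and 98.6, and hIMP1 Dmut had 167 and 172. Here all 4 arrays with a construct lay below both controls. The change was -1.01 ± 0.33 with hIMP1 wt, the only member past an unadjusted p of 0.05 in that comparison, and -0.69 ± 0.33 with hIMP1 Dmut (adjusted p = 1 in both). The probe sets of HNRNPLL thus differed in sign, and their mean over the gene was -0.28. HNRNPUL1, an hnRNP U relative, had 1199 and 1310.5 on the control arrays and 1201 and 1131 with hIMP1 wt, which overlapped, with a change of -0.10 ± 0.16.

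Among the SR proteins, 5 of 7 genes had positive changes with hIMP1 wt, with a median of 0.02. SRSF8 had 1000.4 and 767 on the control arrays and 1217 and 861 with hIMP1 wt at 214789_x_at, groups that overlapped, with a change of 0.22 ± 0.25. SRSF6 had 1720.2 and 1669 against 1420.4 and 1714 at 208804_s_at, with a change of -0.12 ± 0.17. The wt array numbered 1 alone was low there, and without it the change was 0.02. SRSF5 had 1591 and 1252 against 1525 and 1642 at 212266_s_at, again with overlap, and its change was 0.16 ± 0.18. At the dim 210077_s_at the same gene had 60.6 and 2.73 on the control arrays, 59.3 and 57.3 with hIMP1 wt, and 76.8 and 39.97 with hIMP1 Dmut. Only the control array numbered 2 stood apart, and the change of 1.23 ± 0.69 with hIMP1 wt became -0.05 without it. TRA2A, an SR-like partner in exon inclusion, had 1397 and 1167 against 1215 and 1119.9 at 204658_at, with a change of -0.13 ± 0.17.

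With hIMP1 Dmut in place of the wild type, 0 of 132 member probe sets passed, against 0.00732% of all, again the 2 of HSPA6. At an unadjusted p under 0.05 there was 1 (0.758%), against 1.42% of all. Positive changes were seen in 18 of 37 genes (against 48.7% of all) and negative ones in 19, the median was -0.00 against -0.01 over all genes, and all 37 intervals included 0. The median moved with the scaling, to 0.03 after quantile scaling, 0.04 after cyclic loess and -0.07 after median scaling, where the median of all genes was -0.01, -0.01 and -0.07. HNRNPDL, an AU-rich element binding relative of hnRNP D that poisons its own message by splicing, had 2979 and 2847 with the empty vector and 1896 and 2615 with hIMP1 Dmut at 209067_s_at. Both Dmut arrays lay below both controls, the array numbered 1 furthest, and the change was -0.39 ± 0.20 (adjusted p = 1). RALY, an hnRNP C relative, had 434 and 526 against 358 and 431, with both Dmut arrays below both controls and a change of -0.28 ± 0.20. SYNCRIP had 1852 and 1627 on the control arrays, 1800.0 and 1849 with hIMP1 wt, and 1669.5 and 1292 with hIMP1 Dmut at 217832_at. The Dmut and control arrays overlapped, with a change of -0.24 ± 0.18, and 4 of the gene's 7 kept probe sets had negative changes.

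PTBP1, the broadly expressed polypyrimidine tract protein that represses neuronal exons, had 2657 and 2796 on the control arrays, 2937 and 2848 with hIMP1 wt, and 3339.6 and 3012 with hIMP1 Dmut at 211270_x_at. Both groups with a construct lay above both controls, and the changes were 0.09 ± 0.16 and 0.22 ± 0.16. The 1 member probe set past an unadjusted p of 0.05 was also of PTBP1, 226491_x_at, with 32.7 and 3.96 against 36.98 and 74.04 and a change of 1.41 ± 0.59. It is dim, and the control array numbered 2 was the low one. PTBP2, the form of that protein that takes over in neurons, had 609 and 206 on the control arrays, 540.3 and 314 with hIMP1 wt, and 483 and 474 with hIMP1 Dmut at 218683_at. The groups overlapped. Within mock and hIMP1 wt the arrays numbered 2 were the lower ones, and the change of 0.42 ± 0.42 with hIMP1 Dmut became -0.34 without the control array numbered 2. HNRNPUL1 had 1351 and 1375 with hIMP1 Dmut, both above all 4 other arrays, with a change of 0.12 ± 0.16. SRSF5 again differed in sign between 210077_s_at (1.18 ± 0.69, and -0.10 without that control array) and 203380_x_at (-0.12 ± 0.18).

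**Figure D1:**
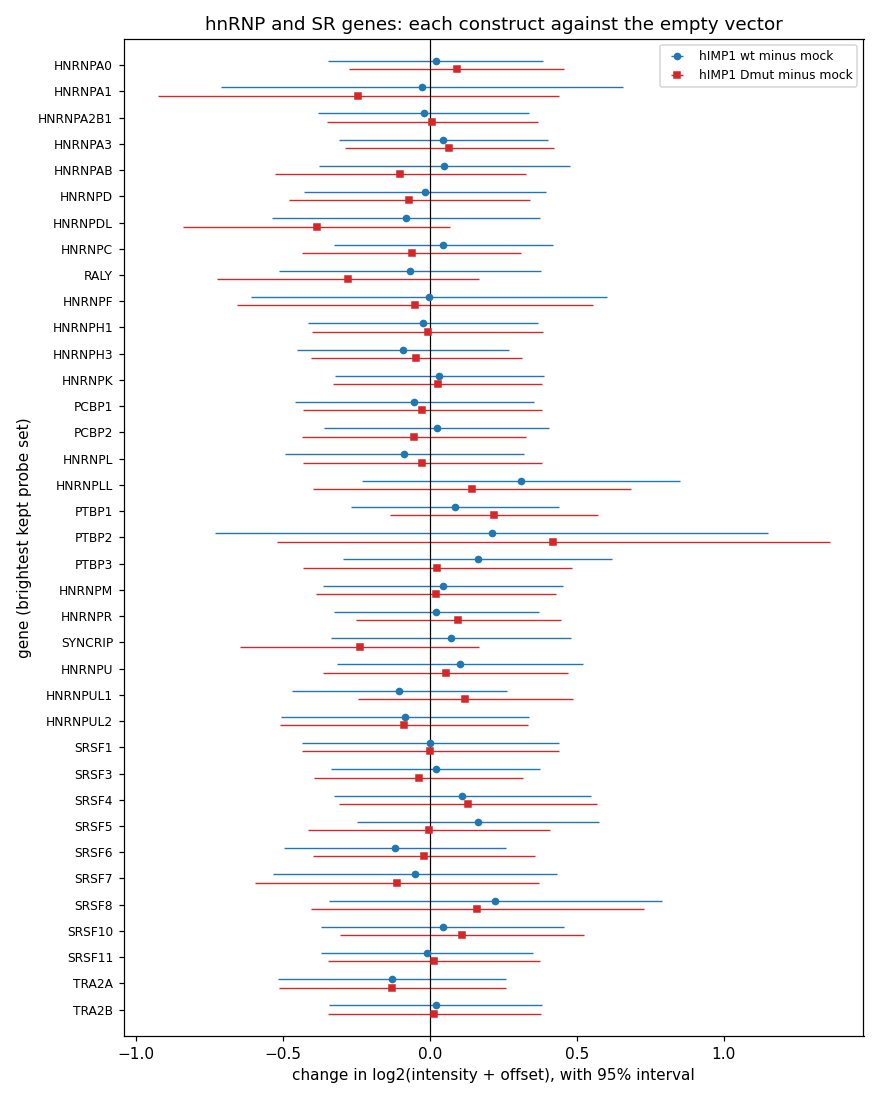
Change in log2(intensity + offset) with its 95% interval for the brightest kept probe set of each of the 37 genes, for hIMP1 wt (circles) and hIMP1 Dmut (squares) against the empty vector, with 2 arrays a group. All intervals include 0, and the largest positive and negative changes are those of PTBP2 (0.42) and HNRNPDL (-0.39) with hIMP1 Dmut.

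The constructs were also set against each other. Of the 132 member probe sets 0 passed, against 0% of all 27307, and 2 had an unadjusted p under 0.05 (1.52%), against 1.23% of all. The changes were positive in 17 genes (against 52.4% of all) and negative in 20, with a median of -0.00 against 0.01 over all genes. After median scaling 3 of 37 were positive, with a median of -0.13, but that scaling also moved the median of all genes to -0.11. The arrays shared by these comparisons make their values dependent. Among brightest probe sets SYNCRIP had the largest statistic of the negative changes, at -0.31 ± 0.18 for 217832_at. Both Dmut arrays lay below both wt arrays at that probe set. HNRNPDL followed at -0.30 ± 0.20, with 2418 and 3130.1 for hIMP1 wt overlapping the Dmut values, and RALY at -0.21 ± 0.20, with 439 and 473. The positive changes of largest statistic among brightest probe sets were those of HNRNPUL1 (0.22 ± 0.16), PTBP1 (0.13 ± 0.16) and SRSF6 (0.10 ± 0.17).

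The 2 members at an unadjusted p under 0.05 were HNRNPM, a splicing repressor of the hnRNP M type, and HNRNPA0. HNRNPM had 29.7 and 18.3 with hIMP1 wt and 62.8 and 56.04 with hIMP1 Dmut at 233605_x_at, a dim probe set, with no overlap and a change of 1.07 ± 0.38. At its bright probe set 200072_s_at the values were 4575 and 3992 against 4461 and 3263, which overlapped, with a change of -0.16 ± 0.19. HNRNPA0, an AU-rich element binding hnRNP, had 381 and 229 against 513 and 462 at 201055_s_at, with no overlap and a change of 0.70 ± 0.31. HNRNPC, which binds uridine tracts and masks cryptic splice sites, had 4.98 and 47.99 against 41.8 and 56.1 at its dim probe set 235500_at, groups that overlapped, with a change of 1.02 ± 0.60. Its brightest probe set, 214737_x_at, had 5347 and 5407 against 5420.2 and 4592 and a change of -0.11 ± 0.17.

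The members differed far more between the numbers than between the constructs. Between the 3 arrays numbered 2 and the 3 numbered 1, with the group as a term in the limma fit, 19 of 132 member probe sets passed the threshold (14.4%), against 5.71% of all. Of these, 14 were lower on the arrays numbered 2 (10.6% of the members, against 2.9% of all) and 5 were higher (3.79% against 2.81%). They came from 15 genes, 11 with lower and 4 with higher probe sets. In 17 of the 19 the 3 arrays of one number did not overlap those of the other. At an unadjusted p under 0.05 there were 52 members (39.4%), against 22.3% of all. Over all members, 55 had no overlap (41.7% against 29.3%), 39 of them lower (29.5% against 14.8%) and 16 higher (12.1% against 14.5%). Of the 37 genes at their brightest probe set, 27 had negative and 10 positive changes (27% positive, against 52.2% of all genes), with a median of -0.11 against 0.02 over all genes. The median of the members was -0.14 within mock, -0.04 within hIMP1 wt and -0.14 within hIMP1 Dmut.

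How many members passed depended on the variance model and on which groups of arrays bore on the change. When the variance prior took no account of intensity, none of the members passed, and none of all probe sets did, although 30 members and 5076 of all had an unadjusted p under 0.05 there. It was 7 without the filter (4.73%, against 1.02% of all), 12 after median scaling (9.09% against 5.32%), 6 higher and 6 lower, and 26 after quantile scaling (19.7% against 5.3%). Without the mock array numbered 1 it was 5 (3.76% against 2.03%) and without that numbered 2 it was 6 (4.51% against 2.07%). Without the wt arrays it was 4 (3.03% against 1.15%) and 3 (2.31% against 0.945%). Without the Dmut arrays it was 52 (39.7% against 19.7%) and 48 (36.9% against 18.8%). Leaving out 1 array leaves its partner alone in its group, where the group term fits it exactly. The change between the numbers then rests on the other groups, and is the same whichever array of the group is left out. At 214789_x_at of SRSF8 it was -0.55 without either mock array. The share of all probe sets moved with that of the members, which was the higher one in each of these fits that made a call. Median scaling raised the median of all genes to 0.12 and that of the members to 0.00, and it raised the share of higher calls over all probe sets from 49.2% to 69.9%. For ACTB, the 3′ control probe set relative to the 5′ one also differed by number, at 1.44 to 1.52 on the arrays numbered 1 and 1.57 to 1.67 on those numbered 2, and its part in the result was not tested. The same ratio for GAPDH overlapped, at 1.03 to 1.16 and 1.13 to 1.17.

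**Figure D2:**
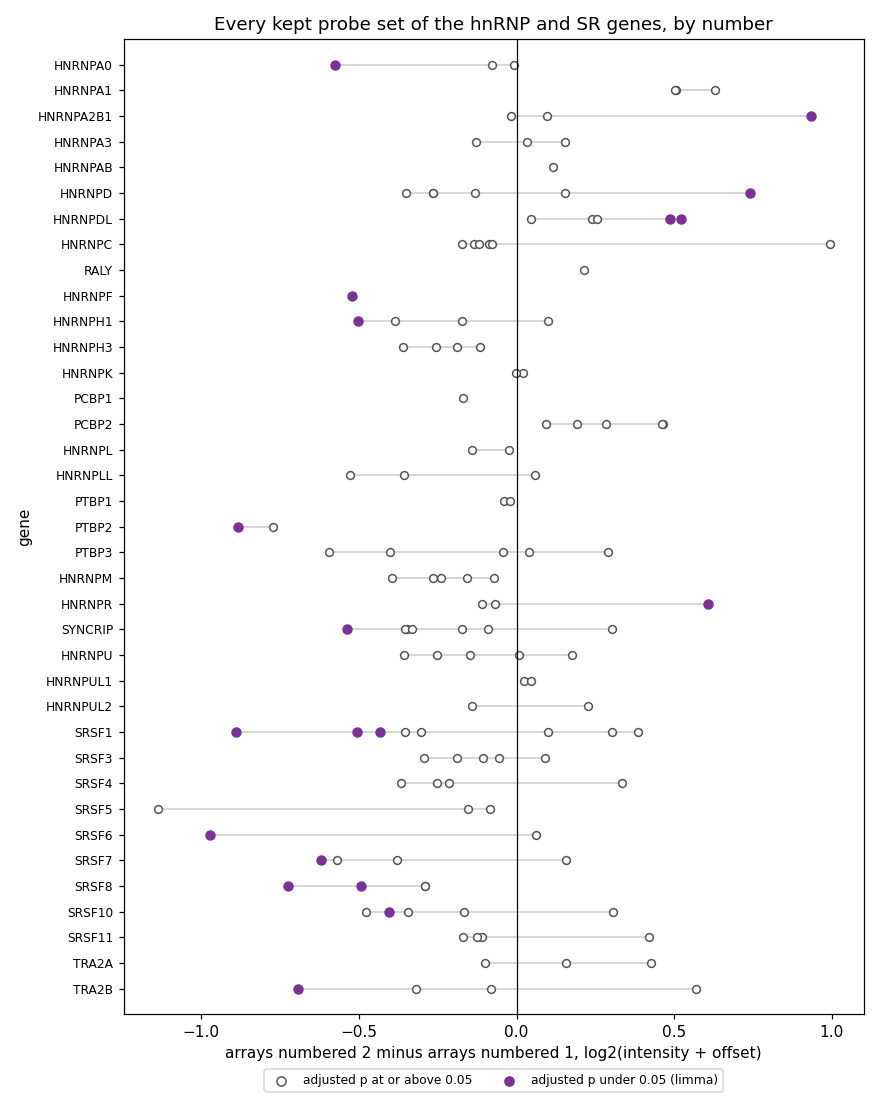
Change between the arrays numbered 2 and those numbered 1, in log2(intensity + offset), for each of the 132 kept member probe sets, 1 line per gene. Filled points are the 19 past the threshold, 14 of them to the left of 0, and grey lines join the probe sets of a gene.

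SR proteins held the most lower calls. Of their 30 kept probe sets 7 passed, all lower on the arrays numbered 2 (23.3%, against 5.71% of all). These were probe sets of SRSF1, SRSF6, SRSF7 and SRSF8 only, with several of them from SRSF1 and SRSF8. The 7 genes had a median change of -0.25. After median scaling 4 passed, all lower, with a median of -0.14, where 5.32% of all passed and 69.9% of those calls were higher. Without probe sets ending in _x_at 4 of 25 passed, all lower, with a median of -0.15, where 6.61% of all passed. SRSF6, which binds purine-rich exonic enhancers, had 438 (empty vector), 452 (hIMP1 wt) and 499 (hIMP1 Dmut) on the arrays numbered 1 and 247, 211 and 239 on those numbered 2 at 206108_s_at. All 3 pairs fell alike with no overlap, by 0.97 ± 0.13 on the log2 scale (adjusted p = 0.0033). SRSF7, an SR protein with a zinc knuckle that also acts in export and polyadenylation, fell at 213649_at from 1373, 1136 and 1363 to 807, 829.7 and 866 (-0.62 ± 0.11, adjusted p = 0.0135). SRSF8 fell at its brightest probe set, 214789_x_at, from 1000.4, 1217 and 1212 to 767, 861 and 794, again without overlap (-0.49 ± 0.11, adjusted p = 0.0281). Its probe set 213152_s_at went from 317, 373 and 345 to 226, 178 and 212 (-0.73 ± 0.15), and all 4 of its kept probe sets had negative changes.

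SRSF1, the founding SR protein and a known oncoprotein, had 3 of 8 probe sets past the threshold. At 201742_x_at it fell from 3441, 3766 and 3747 to 2575, 2858 and 2302 (-0.50 ± 0.12, adjusted p = 0.0294). The dimmer 201741_x_at changed by -0.89 ± 0.19, from 162, 138 and 177 to 82.8, 90.4 and 71.7, and 208863_s_at by -0.43 ± 0.12. None of these overlapped between the numbers. In the other direction, 226419_s_at of SRSF1 had 314, 273 and 317 against 505, 348 and 353, a change of 0.39 ± 0.14 that did not pass. Of the SR-like proteins, 2 of 16 probe sets passed (12.5%, against 5.71% of all), both lower, and none after median scaling. Without probe sets ending in _x_at, 1 of the SR-like probe sets passed as higher and 1 as lower. TRA2B, the partner of TRA2A, fell at 210180_s_at from 469, 441 and 590.1 to 352, 237 and 334 (-0.69 ± 0.14, adjusted p = 0.0160). Its brightest probe set, 200893_at, changed by -0.08 ± 0.12 and the dim 239447_at by 0.57 ± 0.42. SRSF10, a splicing repressor that is dephosphorylated on heat shock, had 1361, 1541 and 1743 against 1046, 1091 and 1375 at 213594_x_at (-0.40 ± 0.11, adjusted p = 0.0488), where the Dmut array numbered 2 overlapped the arrays numbered 1.

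**Figure D3:**
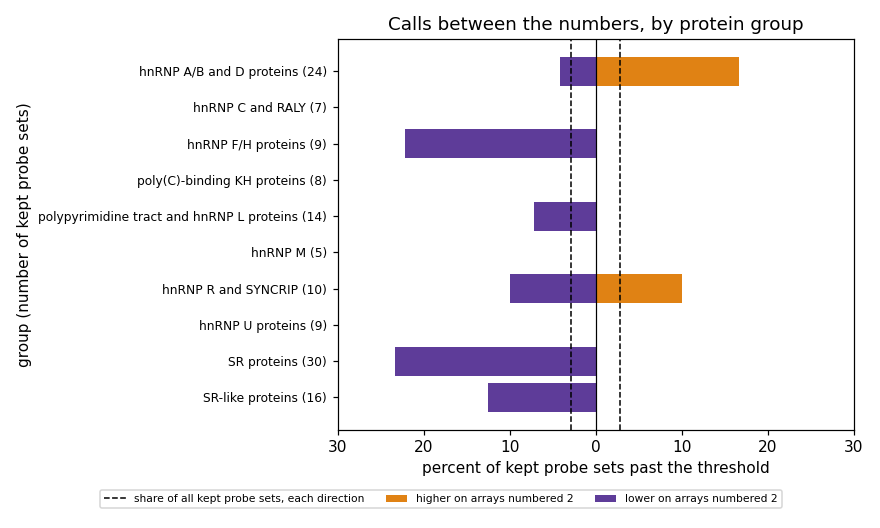
Share of kept probe sets past the threshold between the numbers in each group of proteins, higher on the arrays numbered 2 to the right and lower to the left, with the share of all kept probe sets dashed (2.81% and 2.9%). SR proteins show 7 of 30, all lower, and the hnRNP A/B and D group 5 of 24, of which 4 are higher.

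The hnRNP A/B and D group held most of the higher calls. Of its 24 probe sets 5 passed (20.8%, against 5.71% of all), 4 higher, from 3 genes, and 1 lower. The 7 genes were mixed at their brightest probe sets, with 3 lower and a median of 0.03. Median scaling left 4 calls, all higher, quantile scaling gave 3 higher and 2 lower, and cyclic loess 4 higher and 2 lower. Of all probe sets 5.32%, 5.3% and 5.51% passed there, and 69.9%, 50.1% and 50.1% of those calls were higher. The median of the genes was 0.14, -0.03 and -0.02 in that order, so its sign turned with the scaling. HNRNPA2B1, a reader of exonic and microRNA sorting motifs, rose at 225107_at from 362, 338 and 343 to 694, 754 and 582. The numbers did not overlap and each of the 3 groups rose, by 0.94 ± 0.13 (adjusted p = 0.0033). HNRNPD, the AU-rich element binding protein AUF1, rose at the dim 213359_at from 94.8, 84.6 and 79.8 to 155, 139.9 and 156 (0.74 ± 0.18, adjusted p = 0.0347). Only 2 of its 6 kept probe sets had positive changes. Its 209330_s_at changed by -0.35 ± 0.11 without passing. Its brightest probe set, 200073_s_at, had 4911, 4802 and 4591 against 4009, 4000 and 3891, lower without overlap, and did not pass either. HNRNPDL rose at 212454_x_at from 1029.6, 1093 and 1002 to 1366, 1493 and 1529.9 (0.49 ± 0.11, adjusted p = 0.0281) and at 209068_at from 471, 415 and 438 to 672, 751 and 511 (0.52 ± 0.14, adjusted p = 0.0453). All 5 of its kept probe sets had positive changes. HNRNPA0 was the exception, with 498, 381 and 513 against 269, 229 and 462 at 201055_s_at (-0.58 ± 0.15, adjusted p = 0.0458), where the Dmut array numbered 2 overlapped the arrays numbered 1.

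HNRNPA1, the archetypal splicing silencer of the group, had 1954, 1987 and 2361 against 3608, 3419 and 2130.2 at 214280_x_at. Mock and hIMP1 wt were higher on the arrays numbered 2 and hIMP1 Dmut was not, so the change of 0.50 ± 0.17 did not pass (adjusted p = 0.103). All 3 of its probe sets had positive changes, and their mean passed, at 0.54 ± 0.11 (adjusted p = 0.0275).

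Among the F and H proteins, which bind G-runs, 2 of 9 probe sets passed (22.2%, against 5.71% of all), both lower, and none after median scaling. HNRNPF, with 1 kept probe set, fell from 1552, 1444 and 1682 to 1109.9, 1190.0 and 954 (-0.52 ± 0.12, adjusted p = 0.0327). HNRNPH1 fell at 213470_s_at from 945, 911 and 831 to 589, 685 and 616 (-0.50 ± 0.12, adjusted p = 0.0302), and its brightest probe set 213619_at changed by -0.17 ± 0.12. Neither overlapped between the numbers.

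In the polypyrimidine tract and hnRNP L group 1 of 14 passed (7.14%, near the 5.71% of all). PTBP2 fell at 1554614_a_at from 218, 214 and 203 to 102, 113 and 117, without overlap (-0.88 ± 0.16, adjusted p = 0.0130). At its brightest probe set it changed by -0.77 ± 0.21 (adjusted p = 0.0518), and the mean of both passed at -0.83 ± 0.16 (adjusted p = 0.0270). PTBP3, a relative found early in blood cells, had 546, 607 and 546 against 658, 743 and 682 at 224617_at, with no overlap and a change of 0.29 ± 0.11 that did not pass.

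SYNCRIP and HNRNPR, close relatives of each other, moved in opposite directions at 1 probe set each. SYNCRIP fell at 209025_s_at from 1302, 1295 and 1307 to 801, 959 and 928 (-0.54 ± 0.11, adjusted p = 0.0207), and 6 of its 7 kept probe sets had negative changes. HNRNPR rose at 232004_at from 137, 122 and 138 to 199, 231 and 190.3 (0.61 ± 0.16, adjusted p = 0.0485), but its brightest probe set 208766_s_at changed by -0.07 ± 0.11. No overlap was seen at either of the 2 that passed.

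The remaining groups gave no call between the numbers: 0 of 7 probe sets of HNRNPC and RALY, 0 of 8 of the poly(C)-binding proteins, 0 of 5 of HNRNPM and 0 of 9 of the hnRNP U proteins. HNRNPK, the best known poly(C)-binding hnRNP, had 5783, 5428 and 5863 against 5443, 6063 and 5565, with a change of -0.00 ± 0.12. HNRNPC differed in sign between its dim 235500_at (0.99 ± 0.38) and 200014_s_at (-0.17 ± 0.11). HNRNPUL2 had 955, 864 and 929 against 1114, 1094 and 1012 at 225405_at, without overlap, with a change of 0.23 ± 0.11 that did not pass.

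**Figure D4:**
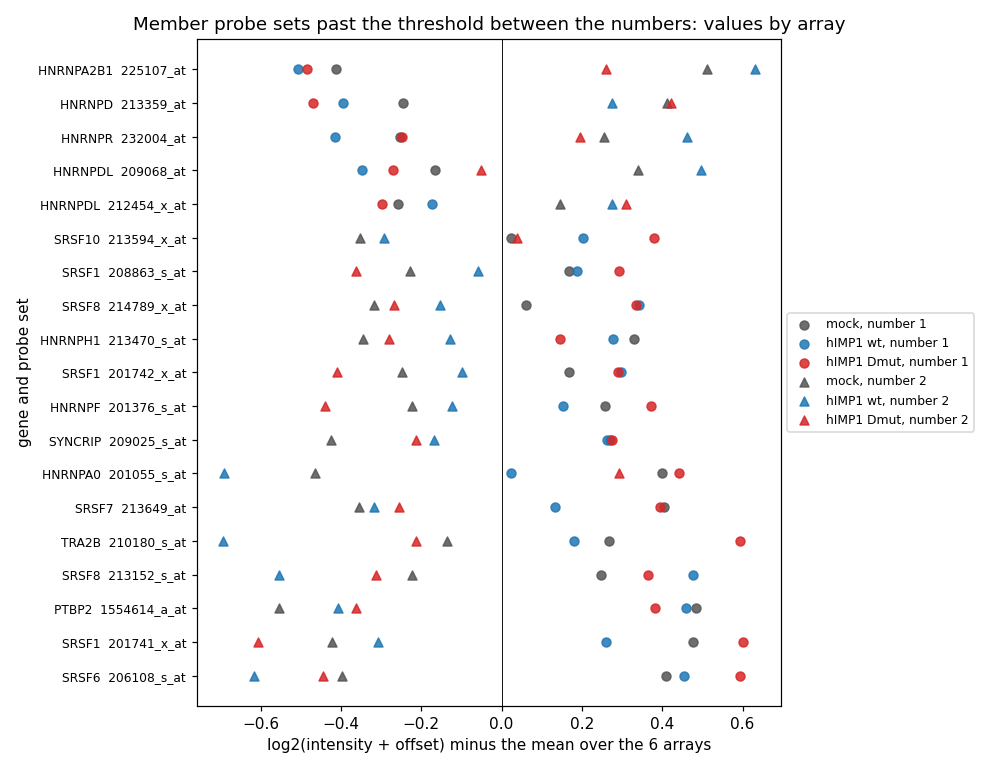
The 19 member probe sets past the threshold between the numbers, each array shown as log2(intensity + offset) minus the mean over the 6 arrays. Circles are arrays numbered 1 and triangles those numbered 2, in grey for mock, blue for hIMP1 wt and red for hIMP1 Dmut, and circles and triangles separate in 17 of the 19, overlapping at HNRNPA0 and SRSF10.

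Of the 19 calls between the numbers, 2 fell on the brightest probe set of their gene, those of SRSF8 and HNRNPF. Most kept probe sets are not the brightest: 37 of the 132 members are. These counts and the signs below are given for members only. Of the 33 genes with several kept probe sets, 8 had negative changes at every one, 4 had positive ones at every one, and 21 were mixed. Whether probe sets of 1 gene differed in their change was therefore tested, after the values had been seen, on the log2 difference between each probe set and the brightest of its gene on the same array. Of 95 member probe sets 2 passed (2.11%), against 0.369% of all 10833. At SRSF6, 206108_s_at moved by -1.03 ± 0.18 relative to 208804_s_at (adjusted p = 0.0395). The latter had 1720.2, 1420.4 and 1693 on the arrays numbered 1 and 1669, 1714 and 1647 on those numbered 2, values that overlapped. At HNRNPA2B1, 225107_at moved by 0.95 ± 0.17 relative to 205292_s_at (adjusted p = 0.0395), whose values overlapped as well, at 10469, 10815 and 9981 against 10313, 9686 and 10922. Below these came 201129_at of SRSF7, at 0.54 ± 0.11, and 213359_at of HNRNPD, at 1.00 ± 0.22, both with an adjusted p of 0.0596. The SRSF6 and HNRNPA2B1 calls were lost after quantile scaling (adjusted p = 0.0584), after cyclic loess (0.0611), without the filter (0.0546), and without any one of the mock or wt arrays (0.284 to 0.448). Without either Dmut array 19 members passed, and so did 11.3% and 11.2% of all, against 0.369% with every array. Which transcripts each probe set reads was not analysed here.

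**Figure D5:**
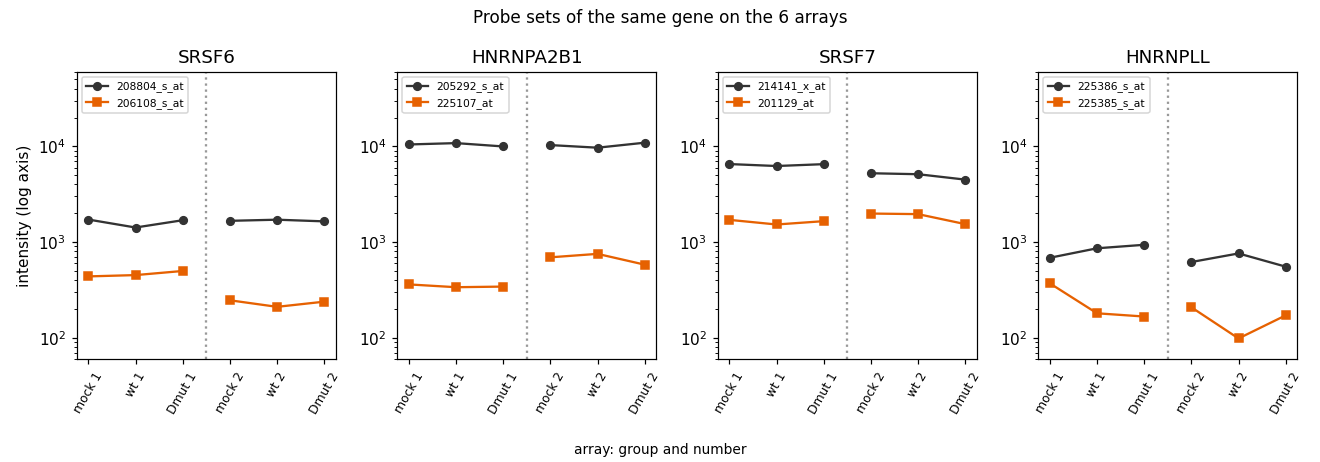
Intensity on a log axis of the brightest probe set (black circles) and another probe set (orange squares) of SRSF6, HNRNPA2B1, SRSF7 and HNRNPLL on the 6 arrays, those numbered 1 left of the dotted line. The orange SRSF6 values drop from 438 to 499 down to 211 to 247 between the numbers and the orange HNRNPA2B1 values climb from 338 to 362 up to 582 to 754, while the black values of both genes overlap.

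Genes that work with the hnRNP and SR proteins were read from 6 lists. None of their probe sets passed in the 3 comparisons of constructs. Among brightest probe sets the largest statistic there was that of TAF15, an RNA-binding protein, whose 202840_at had changes of -0.89 ± 0.22 for hIMP1 wt against the empty vector and 1.11 ± 0.22 for hIMP1 Dmut against hIMP1 wt (adjusted p = 1 in both). Between the numbers, SR-related proteins and coactivators had 7 of 67 probe sets past the threshold (10.4%, against 5.71% of all), 6 lower and 1 higher, led among brightest probe sets by LUC7L, a U1 snRNP associated factor, at -0.79 ± 0.12 (adjusted p = 0.0058). Other splicing regulators had 5 of 103 (4.85%), 3 lower and 2 higher, below the share of all. Among their brightest probe sets RBFOX2 had the largest statistic, at 0.56 ± 0.17, which did not pass. The kinases that phosphorylate SR proteins had 0 of 16, with CLK1 at -0.56 ± 0.16 (adjusted p = 0.0662), and the arginine methyltransferases 0 of 9, with PRMT5 at -0.42 ± 0.12. Nuclear import factors had 1 of 28 (3.57%), lower, with KPNA1 at -0.21 ± 0.13 as the largest statistic among brightest probe sets.

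The list of the IMP1 complex held 10 genes, among them IGF2BP1 itself but not SYNCRIP, which passed between the numbers at 209025_s_at. Of the list's 30 probe sets, 1 passed the threshold between the numbers (3.33%, below the 5.71% of all). It was 223689_at of IGF2BP1, with 188, 253 and 248 against 93.2, 137 and 150.5, a change of -0.83 ± 0.16 (adjusted p = 0.0143), while 227377_at of the same gene changed by 0.34 ± 0.14. With hIMP1 wt, DHX9, a helicase of that complex, had 936 and 900.2 with the empty vector and 1044 and 1092 with the construct, without overlap, and a change of 0.22 ± 0.17 that did not pass. YBX1 changed by -0.06 ± 0.17 at 208628_s_at, HNRNPU by 0.10 ± 0.19 at 200594_x_at and SYNCRIP by 0.07 ± 0.18. These 3 did not pass either.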

How the data were processed

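Total RNA of 6 samples was measured on one-colour Affymetrix arrays. The authors deposited 1 linear intensity per probe set, and the software behind it is not given in the sources used here. All arrays have the same trimmed mean, so each appears scaled by 1 factor. No value is 0 or below, and detection calls were not used here. The files name no genome build.

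Intensities were used as log2(intensity + 9.05), the offset being their pooled lower quartile, which makes changes of dim probe sets smaller. The 62 control probe sets were left out. Groups came from the sample descriptions and numbers from the titles. limma 3.58.1 (R 4.3.3) fitted all 6 arrays with a coefficient per group (3 residual degrees of freedom, 7.03 from the prior with an intensity trend). The comparison of the numbers added a number term (2 and 10.5). Tests were two-sided, Benjamini-Hochberg adjusted over 27307 probe sets. The fits were tested on simulated data at the adjusted threshold. For hIMP1 wt against mock, 2.8% of changes of 0.5, 40.4% of changes of 1 and 85.6% of changes of 2 were called. Between the numbers it was 6%, 55.6% and 88.4%. The simulated arrays for the constructs carried no difference between the numbers, unlike the real ones. At the median standard error, a change reaches an unadjusted p of 0.05 from 0.62 between constructs and from 0.39 between numbers. Only 2 arrays per group limit the precision.

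Members and lists were chosen with earlier results of these data known. The rule named, per comparison and direction, the 3 genes of largest moderated statistic at their brightest probe set. It also named every member past the threshold, genes whose probe sets differ in sign over a spread above 1, and the gene of largest statistic per list. HNRNPK, HNRNPA0, HNRNPM, HNRNPU and the probe sets at an unadjusted p under 0.05 were named after their values were seen. Alternatives were scaling, offset, filter, variance prior, probe set choice, single arrays left out and the number as a block.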

Additional observations from a re-analysis of the deposited data

Results flagged for a closer look

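HNRNPR, the relative of SYNCRIP, is given because its arrays with the 2 constructs lay on opposite sides of the empty vector at 208765_s_at. The empty vector had 1551 and 1523 there, hIMP1 wt had 1775 and 1676, and hIMP1 Dmut had 1463 and 1251. The changes against the empty vector were 0.17 and -0.18, and hIMP1 Dmut minus hIMP1 wt was -0.35 (limma, adjusted p = 1), so the difference did not pass the test. Of the 132 members this was the only one with such a split (0.758%), against 329 of 27307 probe sets in all (1.20%). The gene's brightest probe set, 208766_s_at, went the other way between the constructs. It had 5304 and 4860 with hIMP1 wt and 5352 and 5346 with hIMP1 Dmut, without overlap, a change of 0.08 ± 0.16. At 232004_at, its remaining kept probe set, the constructs overlapped, with a change of -0.05 ± 0.33.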

How the results depend on the processing

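With 2 arrays per group, changes under about 0.62 could not reach an unadjusted p of 0.05 at the median error of all probe sets. Dim probe sets have wide errors. Bright members have smaller ones, such as 0.16 at 200775_s_at of HNRNPK, where smaller changes could reach that p. In the 3 comparisons of constructs no member passed under any alternative run. The labels do not say that the number pairs the arrays. Deviations from the group means correlated between groups at 0.464, 0.200 and 0.217 over 27307 probe sets. With the number as a replicate block, 0, 0 and 0 members passed, with medians of 0.02, -0.00 and -0.00. Of the 132 members 2, 6 and 7 had an unadjusted p under 0.05 there, against 705, 1134 and 870 of all 27307. Without the block the counts over all probe sets were 281, 387 and 337, so they rose with the block as well.

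The median change of the members moved in several settings by more than the SD of its values within numbers or groups. Median scaling moved the median of all genes along with it, to 0.042, -0.075, -0.11 and 0.12 in the 4 comparisons. The cause of the other shifts was not tested. For hIMP1 wt it was 0.078 after median scaling. For hIMP1 Dmut it was 0.031 after quantile scaling, 0.041 after cyclic loess and -0.075 after median scaling. For Dmut minus wt it was -0.13 after median scaling. Between the numbers it was -0.20, -0.18 and 0.00045 in the same order. With single arrays left out these medians ranged from -0.033 to 0.048, from -0.090 to 0.063, from -0.08 to 0.06, and from -0.14 to -0.08 between the numbers.

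Members past the threshold between the numbers came to 12 after median scaling, 7 without the filter and 0 without an intensity trend, and ranged from 3 to 52 with single arrays left out. None of the 19 changed sign, but they were picked because they passed on these same arrays. 225107_at of HNRNPA2B1 and 206108_s_at of SRSF6 passed in 9 of 10 other settings that kept every array. With an array left out, their changes ranged from 0.83 to 1.03 and from -1.05 to -0.92. The change was the same whichever array of a group was left out, so these fits are a check per group and not per array. The test within genes, added after the values were seen, gave 0 members after quantile scaling, 0 after cyclic loess and 0 without the filter. It gave 4 with the offset at the median and 4 without probe sets ending in _x_at, where 0.737% and 1.25% of all passed. Its count also changed with single arrays left out.

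Single genes that changed sign after median scaling were SRSF5 203380_x_at for wt minus mock (0.045) and SRSF6 for Dmut minus wt (-0.032). As the mean of all kept probe sets they were HNRNPLL (-0.28) and SRSF8 (-0.014) for wt minus mock, HNRNPC for Dmut minus wt (0.12), and PTBP3 (-0.14) and SRSF6 (-0.45) between the numbers. With single arrays left out, wt minus mock ranged from -0.10 to 0.080 at SRSF5 203380_x_at, from -0.048 to 2.51 at 210077_s_at and from -0.0080 to 0.34 at 212266_s_at. It ranged from -0.25 to 0.017 at SRSF6 and from -0.025 to 0.47 at SRSF8. Dmut minus mock ranged from -0.34 to 1.18 at PTBP2 and from -0.10 to 2.46 at SRSF5 210077_s_at. Dmut minus wt ranged from -0.23 to 0.012 at HNRNPC 214737_x_at, from -0.39 to 0.062 at HNRNPM 200072_s_at and from -0.038 to 0.23 at SRSF6. SRSF6 208804_s_at ranged from -0.042 to 0.12 between the numbers.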
